A study of Salmo salar with 34 samples.

Results

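The list described here holds the 100 array probes whose signal in the midgut of Atlantic salmon was lower at the high than at the low dietary mineral level with both mineral sources, out of 14841 probes on the array. They were chosen by a rule that used the measured values. The 10295 probes well above background on at least 25 of the 34 arrays were taken, the mean difference high minus low was computed for each source, and the probes were ordered by the smaller of the 2 falls. The first 100 in that order are called members, and a rank is the place of a member in it.

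The arrays came from a feeding trial on smolt in which the diets differed in the amount of 5 added trace elements and in their source, inorganic (IM) or organic (OM). Midgut RNA was taken after 12 weeks and hybridised to one-colour (Cy3) arrays, 1 fish per array. There were 6 fish at high IM (2 males and 4 females), 8 at low IM (3 males and 5 females), 9 at high OM (6 males and 3 females) and 11 at low OM (5 males and 6 females). All fish were kept in sea water, and the low-level diets held added minerals too. By the study's account, the fish of all tanks were also put through repeated handling stress during the trial. They were kept at suboptimal oxygen saturation in its last weeks. The numbered diets behind the words high and low are not named in the labels. Tanks could not be assigned to fish from them either, and tank mates entered the tests as independent fish.

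Copper, iron, manganese, selenium and zinc are trace elements that serve as cofactors of enzymes or, for selenium, as part of selenoproteins, many of them in the defence against oxidation. They are taken up mainly by the epithelium of the intestine, where transporters and metal-binding proteins adjust how much passes. The gut wall also holds immune cells, blood vessels and smooth muscle, so its RNA is a mixture. In such bulk RNA, fewer cells of a type and less RNA per cell cannot be told apart. The probe identifiers in the files are not paired with gene names and 0 of the 14841 had an entry in the gene table used as reference, so the members are described by rank and no role is given to them. The cell types of the midgut could not be checked against their markers for the same reason. Of the members, 93 had an identifier beginning with Ssa and 7 one beginning with Omy (7% against 8.71% of the array).

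All levels below are log2 signals relative to the 75th percentile of the same array, so that 0 is the signal of that percentile. Arrays differed in brightness, with a 75th percentile between 87.9 and 863 intensity units, and in the number of probes well above background, between 8786 and 13682. The arrays lay on 7 slides and were scanned on 2 days, 12 arrays on the first day, all of them females, and 22 on the second. Low OM male 6 and the 3 high OM females stood apart from the other arrays on the first principal component of 9215 probes, which held 20.9% of the variance, with scores of 106.82, 69.44, 53.66 and 48.71 against 31.12 for the next array.

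The members were not confined to dim or to bright probes. Their mean level over all fish ran between -4.18 and 6.37 with a median of -1.27, which lay at the 47.5 percentile of the probes past the filter, and 29 were above the 75th percentile of those probes against 14 below the 25th. On every array 64 members were well above background, and the other 36 were so on 26 to 33 arrays. All 15 high-level arrays measured 65 members well above background, and all 19 low-level arrays measured 86. The array with the fewest was high IM female 1, with 75 of the 100.

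The fall chosen by the rule had a median of -1.21 on the log2 scale in IM (a level 2.31-fold lower at high IM), between -3.07 and -0.86. In OM the median was -1.11 (2.16-fold lower at high OM), between -2.95 and -0.85. Across all 12885 probes fitted, the median change was -0.07 in IM and 0.07 in OM. The fall was the larger one in IM for 58 members and in OM for 42, and 56 members were at least 2-fold lower with both sources. These values are what the rule selected on and are given as a description. At the edge of the list the values formed no gap, with changes of -1.01 in IM and -0.85 in OM for rank 100, the last member, and of -0.85 and -1.20 for rank 101, the first probe left out.

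**Figure D1:**
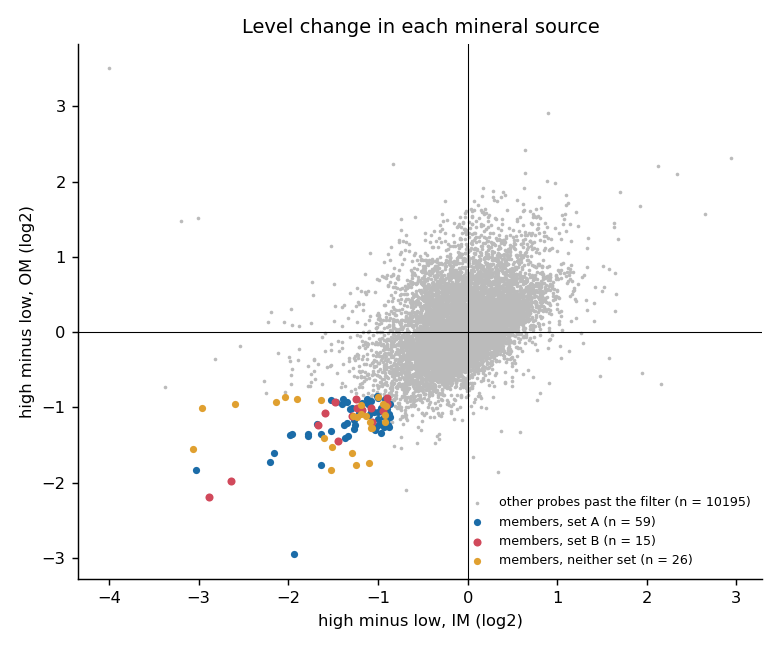
Difference high minus low (log2) in IM on the x axis and in OM on the y axis for every probe past the filter, 1 point per probe, with the 100 members in colour by set and the other 10195 probes in grey. The members occupy the lower left corner by construction, with most of them between -2 and -0.85 on both axes.

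Under the criteria named for the study's gene lists, here an absolute log2 change above 0.81 and an unadjusted p under 0.05 in limma, 85 members were lower at high IM and 85 at high OM, 80 of them in both. Among all probes fitted, 4.11% met the same criteria downwards in IM and 1.96% in OM. At an adjusted p under 0.05 (limma with Benjamini-Hochberg adjustment over all probes), 7 members were past the threshold in IM, against 0.179% of all probes, and 29 in OM, against 0.667%, the 7 among them. Every high IM fish was below every low IM fish for 9 members (0.411% of all probes), and for 0 members in OM (0.0233%). Since the same contrasts chose the members, nothing is read from these counts.

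The rank 1 probe, Ssa#GRASP209733777, was well above background on all 34 arrays. At high IM its level was between -0.72 and 2.44 with a median of 1.06, and at low IM between 3.38 and 4.21 with a median of 3.74. The groups did not overlap, and the spread at low IM (SD 0.28, n = 8) was smaller than at high IM (SD 1.19, n = 6). At high OM the lowest, median and highest levels were -2.0, 1.00 and 2.49, and at low OM 0.92, 3.12 and 4.96. The OM groups overlapped through females, since the 4 lowest low OM fish were females with levels between 0.92 and 1.82. The fitted change was -2.89 ± 0.63 (SE) in IM and -2.20 ± 0.52 in OM, a 7.39-fold and a 4.58-fold lower level at the high mineral level.

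The rank 2 probe, Ssa#TC97951, was a dimmer and more variable one. It was well above background on 3 of 6 arrays at high IM, 8 of 8 at low IM, 7 of 9 at high OM and 8 of 11 at low OM. Its lowest, median and highest levels were -8.50, -4.68 and -1.41 at high IM and -5.66, -2.45 and 1.97 at low IM. At high OM they were -5.79, -3.27 and 3.11, and at low OM -7.31, -0.69 and 4.63. Both pairs of groups overlapped widely, and changes of -2.64 ± 1.67 (SE) in IM and -1.97 ± 1.39 in OM came with adjusted p-values of 0.523 and 0.453 (limma). The order of the list is therefore one of mean differences, and a high rank can go with a large spread.

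**Figure D2:**
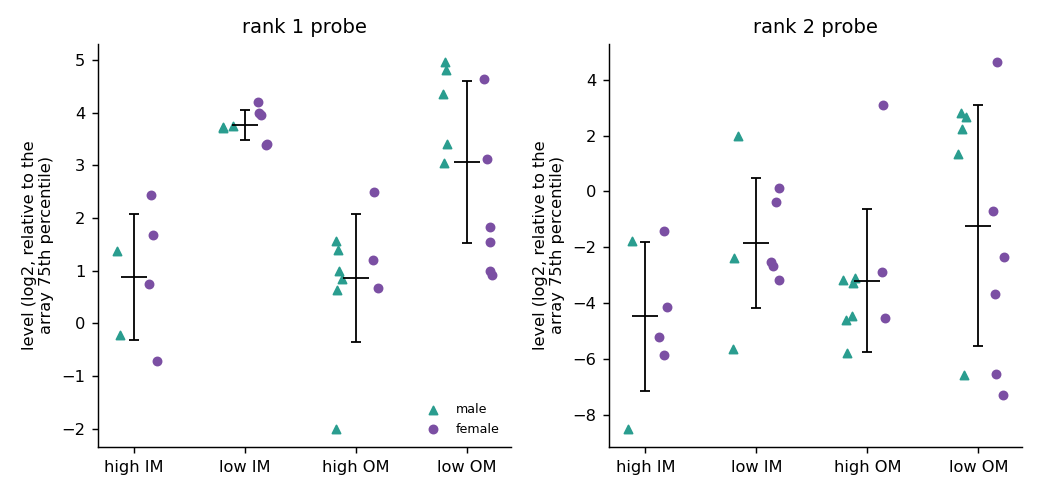
Level (log2, relative to the array 75th percentile) of the rank 1 and rank 2 probes in each fish, males as triangles and females as circles, by diet group, with bars for the mean and SD. For the rank 1 probe the high IM and low IM fish do not overlap, while low OM females reach down to 0.92. The rank 2 probe spans -8.50 to 4.63.

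The members with the smallest p-values lay elsewhere in the order. They were picked after their values were seen and are given as examples of the tight end of the list. The rank 4 probe had lowest, median and highest levels of -4.64, -3.31 and -2.28 at high IM and -1.83, -0.14 and 0.84 at low IM, with no overlap. At high OM these were -4.22, -3.74 and -2.03, and at low OM -4.65, -0.93 and -0.13, where low OM females 5 (-4.65) and 6 (-3.0) and males 3 (-2.41) and 4 (-2.36) lay below the highest high OM fish. The bright rank 60 probe, well above background on all arrays, had levels between 3.48 and 4.23 (median 3.73) at high OM and between 4.01 and 6.02 (median 5.20) at low OM. It had the smallest adjusted p of the members in OM (0.0033 in limma, change -1.34 ± 0.21 SE), and its change in IM was -0.96 ± 0.25 with an adjusted p of 0.064. The brightest member, rank 67, had changes of -0.94 in IM and -1.05 in OM, with levels between 5.22 and 6.46 at high IM against 6.55 to 7.04 in the 7 low IM fish with a value. In OM its groups overlapped, with levels between 5.27 and 6.71 at high OM against 5.81 to 8.03 in the 9 low OM fish with a value.

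Within the diet groups the members varied together, a measure that the rule did not rank on but that is not free of the choice. Residuals from the diet group means over the 34 fish had a median pairwise Pearson r of 0.27 among the members, with 84.3% of pairs above 0, against a median of -0.01 and 48.9% among all 10295 probes past the filter. With residuals taken from the means of each diet and sex the members' median was 0.28. All members were chosen for a change in the same direction, which favours probes that vary together, while the probes past the filter changed in both directions. The pairs share the arrays, the scaling and the fish, and no p-value is given. The members were also more variable between fish of 1 group, with a median within-group SD of 0.79 against 0.54 for all probes past the filter. An order by mean differences favours variable probes, so these values are a description only.

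Clustering of these residuals (average linkage, joined at a mean r of 0.3) placed 59 members in a first set, A, and 15 in a second, B, while the other 26 lay in clusters of at most 6. The median r was 0.46 within set A, 0.56 within set B and 0.25 between A and B. Ranks 1 and 2 belonged to set B and rank 4 to set A. The median change was -1.18 in IM and -1.12 in OM for set A, and -1.24 and -1.05 for set B. The sets were made from these residuals, so their inner correlations describe them and test nothing.

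The mean level over the members is what the rule selected on, so that the order of the groups in it was fixed by the choice of members and only the place of single fish is described. It was -1.09 ± 0.38 at high IM (SD, n = 6, from -1.68 to -0.62) and 0.23 ± 0.43 at low IM (n = 8, from -0.43 to 0.82), and these groups did not overlap. It was -1.11 ± 0.42 at high OM (n = 9, from -1.75 to -0.47) and -0.02 ± 0.57 at low OM (n = 11, from -1.19 to 0.63). In OM the low-level females 6, at -1.19, and 5, at -0.74, lay among the high-level fish. As a count of members below their own mean over all fish, the median fish had 83.5 at high IM and 21.5 at low IM, and 87 at high OM and 24 at low OM. Low OM female 6 had 71 and female 5 had 70.

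**Figure D3:**
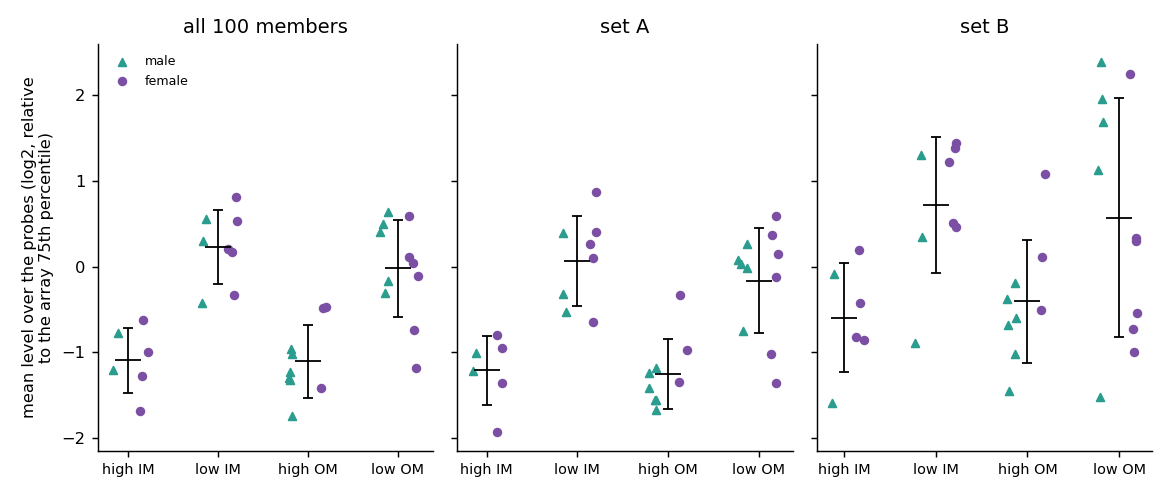
Mean level of all members, of set A and of set B in each fish (log2, relative to the array 75th percentile), males as triangles and females as circles, with bars for the group mean and SD. For all members high IM ends at -0.62 and low IM begins at -0.43, while low OM reaches down to -1.19. For set B low OM ranges from -1.52 to 2.38.

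The rule was also applied again without each fish in turn, and the fish left out was then placed by its mean over the newly chosen probes. Between 85 and 95 of the 100 members were chosen again. Fewer were chosen again under another background correction, as given with the alternatives. The fish left out was nearer to the mean of its own level than to that of the other level in 28 of 34 cases, namely 6 of 6 at high IM, 6 of 8 at low IM, 7 of 9 at high OM and 9 of 11 at low OM. The 6 exceptions were high OM females 3 and 5, low IM female 3, low IM male 2 and low OM females 5 and 6. Slide mates, and possibly tank mates, of the fish left out stayed in the data. No rate by chance is set beside the count, which is a description only.

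The values within scan days and slides are parts of the contrast that chose the members, and their sign is no sign of stability. The mean over the members was 1.55 lower (-1.55) on scan day 1 and 1.21 lower (-1.21) on day 2 in IM. In OM it was -1.10 on day 1 and -1.03 on day 2. Within slides the IM difference was between -2.19 and -0.92 on 4 slides. The OM difference was -1.69, -1.32, -1.02 and -0.22 on 4 slides, and 0.00 on slide 7, whose only low OM fish was female 6. The part of slide in the OM values was not tested apart from the slide block given with the other alternatives.

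Few members were called different in level between the sexes in the fit used here, and the share was under the background of the array. The members were more variable within groups than all probes past the filter (median SD 0.79 against 0.54). The part of this in the number of calls was not tested. With the authors' processed values 7 were called, with no share over all probes given. The difference male minus female, fitted beside the diet groups, had a median of -0.03 over the members, with 52 lower and 48 higher in males, and -0.01 over all probes. At an adjusted p under 0.05, 1 member was higher in males and 0 were lower, against 3.73% and 1.17% of all probes (8 higher and 3 lower at an unadjusted p under 0.05, against 13.1% and 10.3%). That member was rank 23, at 0.88 ± 0.26 (SE) with an adjusted p of 0.045 in limma. Its median level was 2.06 in males and 0.62 in females at high IM, and 2.82 in males and 1.88 in females at low IM. It was 0.63 in males and 1.05 in females at high OM, and 3.22 in males and 1.71 in females at low OM, so males were the higher ones in 3 of the 4 diets. With the scan day as a block, or on scan day 2 alone, the call was lost. Leaving out 1 fish at a time ended it for 23 of the 34 fish. It gave 5 members without high OM female 5, with no share over all probes counted. Scan day 1 held no males, so sex and scan day are partly joined.

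By sex, the median change of the members was below 0 in males and in females with both sources, as a description of what the rule chose. In IM 97 of 100 members were lower at the high level in males (median -1.06) and 98 in females (median -1.31). In OM 99 were lower in males (median -1.48) and 85 in females (median -0.72). Over all probes fitted the median change was -0.11 in IM males, -0.02 in IM females, -0.09 in OM males and 0.08 in OM females. The share of all probes lower in each sex was not counted. At an adjusted p under 0.05, 57 members were lower at high OM in males, against 4.7% of all probes, and 5 in females, against 1.1%. In IM the counts were 0 in males, against 0% of all probes, and 1 in females, against 0.00776% (23 and 75 at an unadjusted p under 0.05, against 3.85% and 6.59% of all probes). These within-sex falls are parts of the contrast that chose the members. The OM counts also come from unequal groups, with 6 high and 5 low males against 3 high and 6 low females. No difference between the sexes is read from them.

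The rule pooled the sexes, and with 6 males and 3 females at high OM its mean there rested more on males. How far males and females differed in their fall at high OM was not ranked on, but is not free of that choice. This difference had a median of -0.74 over the members (male minus female) and -0.13 over all probes. It was below 0 for 87 members, and the share of all probes below 0 was not counted. As a call, the difference is given next. It was past an adjusted p of 0.05 for 8 members, all with a difference below 0, against 12.8% of all probes in that direction and 3.09% in the other. These shares count the sign of the difference, whether or not a probe fell. At an unadjusted p 26 members were past 0.05, against 21.6% of all probes. In the fit of all arrays, the share of members called was thus near or under the background of the array. The high OM females are 3 arrays, all among those that stood apart, so the difference has no value without them. The SD of the log2 levels over all probes was 2.98, 3.03 and 3.11 on these arrays and 3.31 to 3.53 on high OM male arrays. Across the low OM arrays it was 2.80 to 3.68. The part of this spread in the difference between the sexes was not tested. Leaving out 1 fish at a time gave between 1 member, without high OM female 3, and 17, without low OM female 1 or low OM male 4. No share over all probes was counted for these refits, so their counts are not set against a background. The same difference in IM was past the threshold for 0 members in limma. At an unadjusted p under 0.05 it was below 0 for 1 member, against 1.16% of all probes, and above 0 for 1, against 0.505%. Its median was 0.26.

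The 8 members were spread over the list, 4 in set A (ranks 58, 62, 82 and 90) and 4 in set B (ranks 1, 40, 55 and 86). Their differences were between -4.24 and -1.30 with adjusted p-values from 0.021 to 0.0498 (limma), and 6 of them were well above background on all arrays. In males the changes with the OM level were between -3.55 and -1.52, and in females between -0.73 and 1.10, below 0 for 3 of the 8. For the rank 82 probe, high OM males lay between -3.99 and -3.27 (median -3.58) and low OM males between -2.87 and -1.68 (median -1.96), with no overlap. High OM females had levels between -3.12 and -2.51, inside the range of low OM females (-3.27 to -1.88). The rank 55 probe had a median of -2.89 in high OM males and 0.00 in low OM males. In females the medians had the opposite order, with -0.94 at high OM and -2.21 at low OM. The groups overlapped in both sexes. High OM males had levels between -4.52 and -1.61 and low OM males between -2.53 and 0.71. High OM females (n = 3) had levels between -1.93 and 0.55, inside the range of low OM females (-2.76 to 1.12).

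The contrast between the sexes in OM had a median of -1.61 in set B and of -0.64 in set A (male minus female). All 15 probes of set B were lower at high OM in males (median -1.78, between -4.56 and -1.21), whereas 9 of 15 were lower in females (median -0.30, between -1.16 and 1.21). For set A 59 of 59 were lower in males (median -1.42) and 54 of 59 in females (median -0.75). As a mean over set B, high OM males lay between -1.45 and -0.20 and low OM males between -1.52 and 2.38, where the value of -1.52 belonged to male 2 and the other 4 were at 1.13 or above. High OM females were at 1.08, 0.12 and -0.50, and low OM females lay between -0.99 and 2.24 with a median of -0.12. In IM the medians of both sets were below 0 in both sexes, with values for set B of -1.10 in males and -1.44 in females. Sets A and B were formed from residuals that hold the sex differences. No share of all probes is set beside these counts, and the contrast between the sets was not tested.

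**Figure D4:**
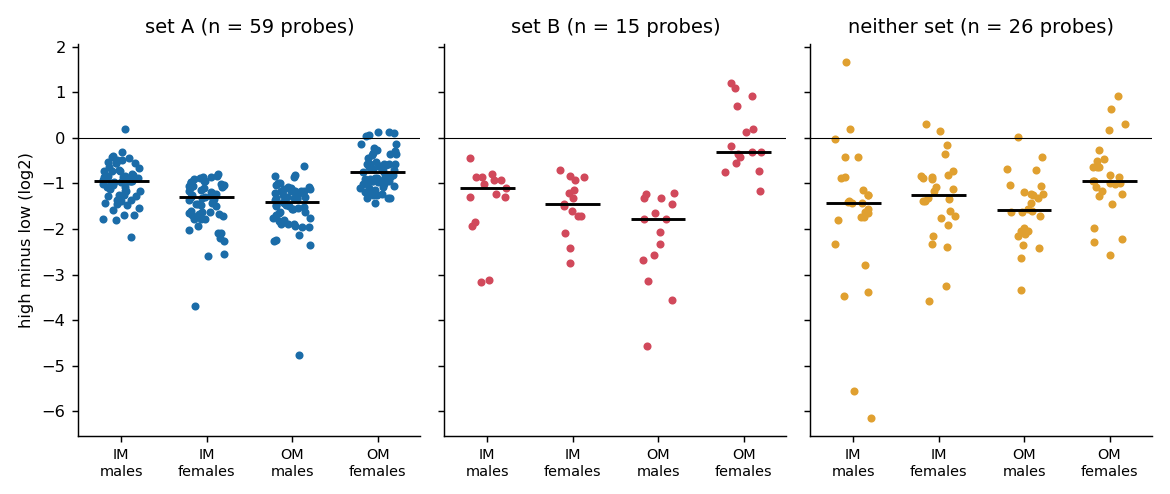
Difference high minus low (log2) of each member by mineral source and sex, in 3 panels for set A, set B and the members of neither set, 1 point per member and a line at the median. The set B medians are -1.10 in IM males, -1.44 in IM females, -1.78 in OM males and -0.30 in OM females.

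Mineral source made no difference past the threshold. IM minus OM, averaged over the 2 levels, was past an adjusted p of 0.05 for 0 members and 0 of all probes (limma). At an unadjusted p under 0.05, 5 members were higher in IM, against 2.34% of all probes, and 1 was lower, against 7.12%. The difference between the sources in the level change (IM minus OM) had a median of -0.10 over the members, with 0 past an adjusted p of 0.05 in limma. At an unadjusted p under 0.05 there were 0, against 2.46% of all probes with a difference below 0 and 0.931% above 0. This difference was bounded by the rule, which asked for a fall in both.

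Probes outside the list that followed the members between fish were also lower at the high mineral level. The 100 probes whose residuals from the diet group means were most alike to the members' mean residual had a Pearson r of 0.63 to 0.82 over the 34 fish. All 100 were lower at the high level with both sources, against 3364 of the 10195 probes past the filter that were not members. The members were chosen for that fall, so probes picked for following them were likely to share it. The 10195 also hold probes that ran against the members (r down to -0.80), and nothing is read from this count. The median change of the 100 most alike probes was -0.62 in IM and -0.59 in OM, and that of the 10195 was -0.02 and 0.03. Among the members the same correlation was between -0.11 and 0.87, the mean residual containing the member itself.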

How the data were processed

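Midgut RNA of 34 fish was measured on one-colour arrays, and fish were assigned to diet group, sex and number from the sample labels. The authors deposited the scanner output of each array, in which the processed signal is a background-subtracted intensity with no scaling between arrays, and a table of processed intensity values used here as an alternative only. Other deposited columns were flags and spot positions. The annotation and scaling steps behind the authors' own analysis were not used here.

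Levels were the log2 processed signal less the 75th percentile of the same array. Control spots and 2160 spots marked as outliers were left out, and 0 spots were saturated. limma 3.58.1 in R 4.3.3 (moderated variances, no covariates) was fitted to the 12885 probes well above background on at least 6 arrays (as many as the smallest diet group held), with Benjamini-Hochberg adjustment over all of them. Sex was tested with the diet groups as terms, and its difference by level over the 8 groups of diet and sex. The fit was run on simulated data with independent noise for each probe and fish, which cannot show the effect of shared tanks or slides. The number of arrays limits the precision, and the p-values measure the spread between fish, some of which shared tanks.

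The members and lists were chosen with earlier results of these data known. With no gene names, the planned lists of pathways and cell type markers could not be run, and by the rule for naming, only the identifiers of the first 2 ranks are given. The alternatives were normexp background correction (offset 50, run on the median brightness), quantile normalization, the authors' values, other filters on dim probes, sex as a covariate, blocks for fish number, slide and scan day, only the groups compared, unmoderated variances, single scan days and each fish left out.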

Additional observations from a re-analysis of the deposited data

Results flagged for a closer look

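For 18 groups of values (the means over the members, over set A, set B and the remaining members, and the levels of ranks 1 and 2, in the 3 diet groups of at most 10 fish) the highest or lowest fish was set against the others, and 3 fish stood apart. Chance alone flags about 1 in 20 separate groups. These groups overlap, since the mean over the members holds the sets and ranks 1 and 2 belong to set B. The 3 are therefore not set against that rate. Low IM male 2 had a set B mean of -0.90, while the next fish of its group was at 0.35. High OM male 2 had a level of -2.0 for the rank 1 probe, and the next high OM fish was at 0.63. High OM female 5 had a level of 3.11 for the rank 2 probe, and the next high OM fish was at -2.90. The response to the OM level differed between males and females for 8 members by the test of the difference itself. All 8 had a difference (male minus female) below 0, against 12.8% of all probes in that direction, a larger share than among the members.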

How the results depend on the processing

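The median change of the members, whose sign the rule fixed, was between -1.33 and -0.78 in IM and between -1.48 and -0.60 in OM over the alternatives in which it was computed (normexp, quantile, the authors' values, probes well above background on all arrays, each sex alone, 1 fish left out, and the 4 arrays that stood apart left out). The counts past thresholds moved. No shares over all probes are given for the alternatives, so these counts are not set against a background and show only how the counts shift. With normexp background correction 40 members met the criteria in IM and 30 in OM, 0 and 1 passed the adjusted threshold, 2 differed between the sexes, 0 differed between the sexes in the OM response, and the rule chose 47 of the 100 again. With the authors' processed values 37 and 49 met the criteria, and 5 in IM and 9 in OM passed the adjusted threshold. With them 7 differed between the sexes and 3 in the OM response by sex. On probes with an authors' value on all arrays, an alternative chosen after seeing the data, 33 and 47 met the criteria. Past the adjusted threshold were 8 in IM and 23 in OM, and 8 and 4 for the sex tests. Requiring probes well above background on 25 arrays or on all arrays gave 15 and 18 members past the adjusted threshold in IM. The counts were 39 and 42 in OM, and 4 and 2 in the OM response by sex. The strictest filter can hold only 64 of the members.

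With the slide as a block 3 members passed in IM, 2 in OM, 0 between the sexes and 1 in the OM response by sex. The scan day as a block gave 11 in IM, 41 in OM, 0 between the sexes and 11 in the OM response by sex. Scan day 1 alone left 54 and 29 members at the criteria and 0 and 12 past the adjusted threshold. Scan day 2 alone left 54 at the criteria in IM and 75 in OM. It left 0 past the adjusted threshold in IM, in OM, between the sexes and in the OM response by sex. Fitting only the groups compared gave 9 in IM, 1 in OM and 2 in the OM response by sex. Unmoderated variances gave 10 in IM, 28 in OM and 4 in the OM response by sex. Without low OM male 6 and the high OM females, chosen after seeing the data, 18 passed in IM and 21 in OM. With fish number as a replicate block 0 passed in IM, 0 in OM, 0 between the sexes and 5 in the OM response by sex. That block took the number alone, so that males and females of 1 number fell in it together. Same-numbered fish of the same sex deviated together (r above 0.1) in 2 of the 5 IM pairs and 2 of the 7 OM pairs. In each of these pairs both fish lay on the same slide, so number and slide cannot be told apart in them. Other pairs on the same slide had r down to -0.30. Single correlations of this kind cannot decide whether the numbers pair the fish.

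Leaving out 1 fish at a time gave 68 to 87 members at the criteria in IM and 77 to 87 in OM, 0 to 21 past the adjusted threshold in IM and 9 to 48 in OM, 0 to 5 between the sexes and 1 to 17 in the OM response by sex. The causes of these shifts were not tested. Signal over background limits the dimmer members, 36 of which were not well above background on every array.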
